A study of Sus scrofa with 48 samples.

Results

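The response of longissimus muscle to the diet was described in pigs of the low RFI line, which had been selected for a low residual feed intake, that is, for eating less than their growth and maintenance predict. The comparison held 24 of the 48 arrays of the series, with 12 pigs fed a high fat, high fiber (HF) diet and 12 pigs fed a low fat, low fiber (LF) diet, and the arrays were chosen by the strain and feed labels alone. All pigs received their diet ad libitum, and per the study's methods they were barrows (castrated males) of Large White lines. The titles give each array an animal number of its own, while age, body weight and litter of single pigs are not in the labels, so the p-values measure the spread between these pigs. The other 24 arrays, from 12 HF and 12 LF pigs of the high RFI line, entered the fit and served as a second reading of the same diets.

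Longissimus is a fast, glycolytic muscle that takes up glucose and fatty acids from blood, stores glucose as glycogen, and builds some fat in the fat cells between its fibers. A diet rich in fat supplies fatty acids in place of starch, and enzymes of fatty acid synthesis are known to be expressed less when starch is replaced by fat. Muscle also holds genes that are switched on within minutes by contraction, stress or hormones, such as the nuclear receptors of the NR4A family, and chaperones that fold new proteins in the endoplasmic reticulum (ER).

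Each array was a one-colour array of 60-base probes, and a level is given as the log2 of the background-subtracted signal minus the array's mean over the 42125 tested probes, so that 0 is the average probe and a difference of 1 is a doubling. The median signal was 52.8 to 79.3 on the HF arrays and 55.2 to 74.8 on the LF arrays, and 59.4% to 74% of an array's probes stood well above the background. No spot was saturated, and the correlation between arrays ranged from 0.982 to 0.99 within a diet and from 0.979 to 0.99 between diets, so no array was a copy of another. The muscle markers were in place: all 11 myofibre genes were tested, and ACTA1 (skeletal actin) and CKM (muscle creatine kinase) stood at 10.2 and 10.42 on the HF diet and at 10.11 and 10.35 on the LF diet. Precision is limited by how many pigs were hybridised.

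Between the diets, 84 of the 42125 probes differed in the low RFI line (limma, Benjamini-Hochberg adjusted p under 0.05), which is 0.199% of the probes tested. The level was higher on the HF diet at 47 probes (0.112%), with a median difference of 0.59, and lower at 37 probes (0.0878%), with a median difference of -0.56. At an unadjusted p under 0.05 there were 2426 higher and 2476 lower probes, or 5.76% and 5.88%. A gene symbol was at hand for 41 of the 84 probes, which belong to 27 genes, 13 higher and 14 lower. The higher probes stood mostly without a symbol (34 of 47 had none), while 28 of the 37 lower probes had one, against 55.7% of all tested probes. These 28 probes are repeated readings of the 14 lower genes. Centering on the 75th percentile of each array gave 169 higher and 36 lower probes. Without the filter on dim probes 14 probes were called, and of the 27 genes MID2, TXNDC16 and RDH16 were among them while the other 24 were not (NR4A3 limma adjusted p = 0.0553).

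The arrays lay on 6 slides, each with 2 HF and 2 LF pigs of the line. All 27 genes differed in the same direction on all 6 slides, as did 43 of the 47 higher and 37 of the 37 lower probes, whereas 9.88% of all tested probes did so. The genes and probes were called on these same pigs, so the choice itself favoured agreement over slides, which is not a replication. Of the 84 probes, 32 of the higher and 34 of the lower were well above background in all 24 pigs. The groups of pigs overlapped at all but 1 of the called probes, that of ABCC5, which was also the only 1 of the 42125 tested probes without overlap. The number of calls rested on single pigs: without HF pig 7 (pigs are numbered 1 to 12 within each diet in the order of the sample list) it was 10, without LF pig 9 it was 33, and without LF pigs 4 and 12, each in turn, it was 47 and 48. It rose to 137 without HF pig 2, and to 130, 141 and 128 without LF pigs 1, 3 and 10. The direction of all 84 probes was kept in each of these fits, which share most pigs with the fit that chose the probes. Leaving out a whole slide, which was chosen after seeing the data, gave 0 calls without slide 4, 2 without slide 5 and 4 without slide 2. MID2, TXNDC16, TMEM135 and RDH16 were called in every one of the 24 fits that left out 1 pig.

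**Figure D1:**
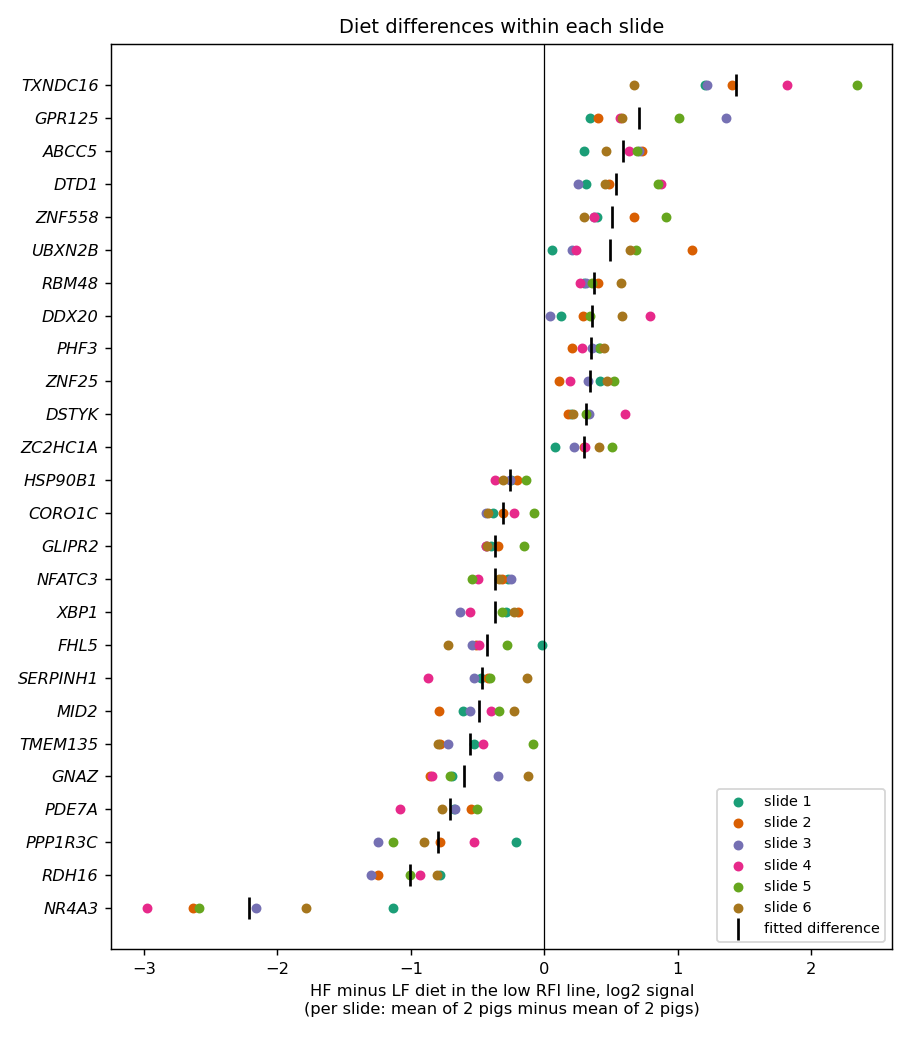
HF minus LF difference in log2 signal (x axis) for 26 of the called genes (y axis), within each of the 6 slides (coloured points, mean of 2 HF pigs minus mean of 2 LF pigs) and in the fit over all arrays (black ticks). All points of a gene lie on one side of 0, from -2.98 for NR4A3 to 2.34 for TXNDC16, and FHL5 comes closest to 0 with -0.02. The genes were called on these same pigs.

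The largest named difference was that of NR4A3 (NOR1), an orphan nuclear receptor of muscle that responds within minutes to contraction and adrenergic signals. Its level ranged from -2.97 to -0.19 (median -1.58) in the 12 HF pigs and from -1 to 2.9 (median 0.60) in the 12 LF pigs. All 12 HF pigs were under the LF median, 9 of them were under the lowest LF pig, and 10 LF pigs were above the highest HF pig. NR4A3 fell by 2.21 on the log2 scale on the HF diet (standard error 0.45, limma adjusted p = 0.0205), a 4.64-fold lower level. The difference was -1.97 in the pigs scanned on the first day and -2.45 in those scanned on the second. Without HF pig 7 the limma adjusted p was 0.0574, and the gene was called in the other 23 fits that left out 1 pig.

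NR4A3 had 5 tested probes, and their first 30 of 60 bases are shown because the size of the difference depended on the probe:
NR4A3 A_72_P302674: gttgctctttagtgtgtgttaacctgtgtt
NR4A3 A_72_P637266: tagtgtgaacatgccttctttgggcagaaa
NR4A3 A_72_P574174: taaagattatagccagtgttcttctgtctt
NR4A3 A_72_P413628: atgaatgcccttgtccgagctttaacagac
The difference was -2.06 at A_72_P302674, -2.14 at A_72_P637266 and -1.52 at A_72_P574174, all called. The other called probe, which carried the difference of -2.21 above, has the same 60 bases as A_72_P302674, so that the 4 called probes read 3 separate stretches. At A_72_P413628 the difference was -0.92 (limma adjusted p = 0.523), where 5 HF and 8 LF pigs were above background.

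NR4A3 was the only called gene of the immediate early list, which holds transcription factors and phosphatases induced within minutes of a stimulus. Of its 26 genes, 23 were tested with 71 probes, of which 4 were called, all of them NR4A3 and all lower. The median difference over the 71 probes was -0.34, against 0.0037 over all tested probes, and it was between -0.93 and -0.04 on the 6 slides. At an unadjusted p under 0.05, 16 of the 71 probes were lower and 1 was higher, that is 22.5% and 1.41%. The 16 lower probes belong to 7 genes. FOSL1 and ATF3, factors related to AP-1, had the next smallest p-values. For FOSL1 the difference was -1.83 (limma adjusted p = 0.0603), with 2 HF and 9 LF pigs above background, and for ATF3 it was -1.99 (limma adjusted p = 0.108). All 12 HF pigs were under the LF median for both genes, yet 1 probe each was tested and neither passed the threshold. Over the same list the median difference in the high RFI line was -0.04.

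**Figure D2:**
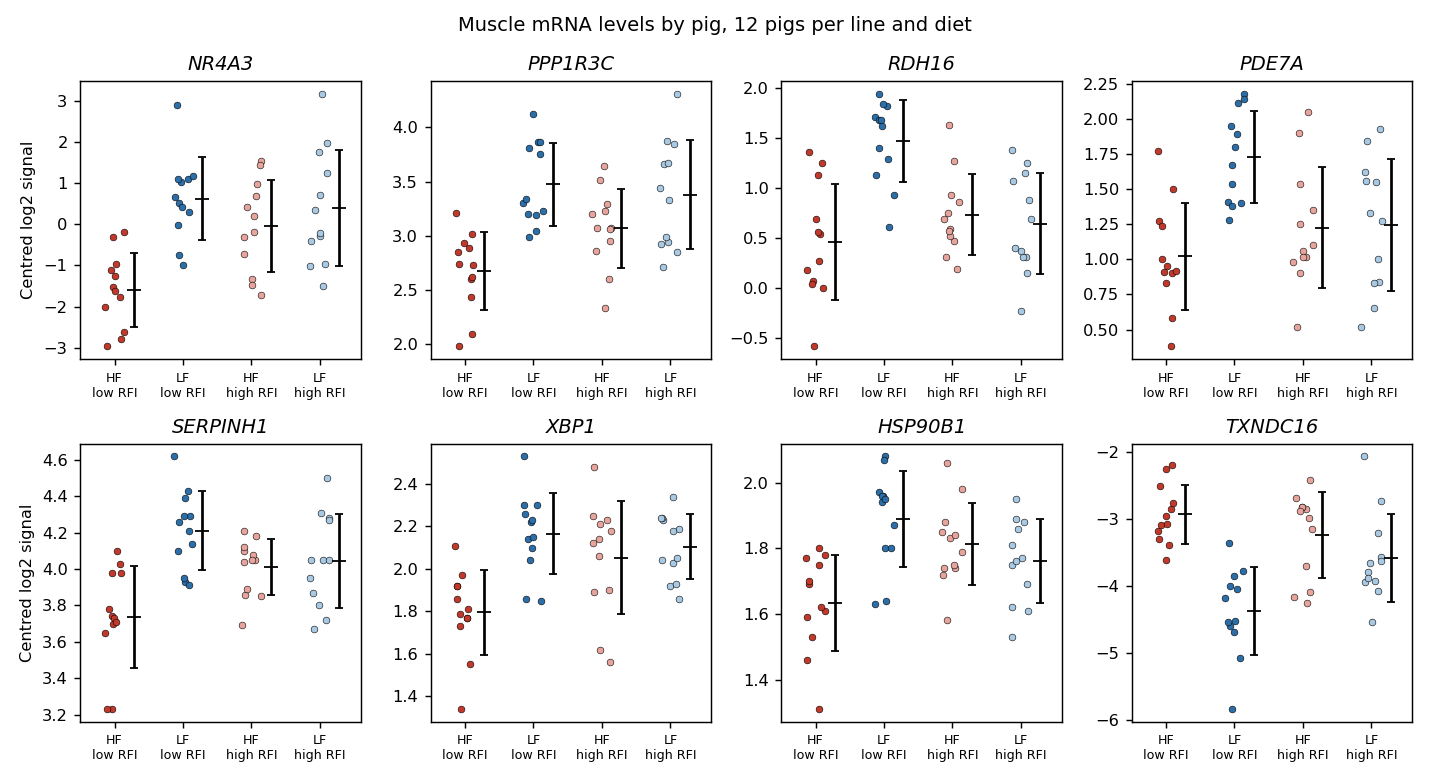
Centred log2 signal (y axis) of 8 called genes in each of the 48 pigs, by diet and line (x axis), with the mean and SD of 12 pigs as a tick and bar beside the points. In the low RFI line (dark points) the HF pigs stand under the LF median for NR4A3, PPP1R3C, RDH16, SERPINH1, XBP1 and HSP90B1, and above it for TXNDC16, while in the high RFI line (pale points) the diets overlap more. The genes were called on the dark points.

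PPP1R3C, the protein targeting to glycogen, brings the phosphatase PP1 to glycogen particles, where it turns glycogen synthase on. Its level was 1.98 to 3.21 (median 2.74) in HF pigs and 2.99 to 4.12 (median 3.32) in LF pigs, and 10 of the 12 HF pigs were under the lowest LF pig. It fell by 0.80 on the HF diet (standard error 0.16, limma adjusted p = 0.0205), or 1.74-fold. Of its 7 tested probes 6 were called, with differences from -0.80 to -0.68, and these 6 read 6 separate stretches. The exception was O13753, at -0.23 (limma adjusted p = 0.443). Its bases are the complement of a called probe, A_72_P638375 (difference -0.70), over 37 bases, so that the pair reads opposite strands of one stretch. The capitals below mark bases in that stretch, which takes in the first 30 of both probes:
PPP1R3C A_72_P638375: GCTACCACCCACAGTTTTCTACTCTAAATA
PPP1R3C O13753: AGTGAAATATTTAGAGTAGAAAACTGTGGG
Without HF pig 7, the pig with the lowest PPP1R3C level, the difference was -0.74 and the limma adjusted p was 0.0574.

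PPP1R3C was the only called gene among the 29 tested genes of glucose uptake, glycogen turnover and glycolysis. The 102 probes of that list had a median difference of 0.0, with 9 lower (8.82%) and 1 higher (0.98%) at an unadjusted p under 0.05. HK1 and HK2, the hexokinases that trap glucose in the cell, differed in opposite directions without passing the threshold, by -0.23 and 0.39 (limma adjusted p = 0.324 and 0.392). The 9 lower probes were 6 of PPP1R3C and 3 of HK1.

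XBP1, HSP90B1 and SERPINH1 were lower on the HF diet, of which XBP1 and HSP90B1 belong to the list of heat shock and ER stress genes. XBP1 is the transcription factor of the unfolded protein response that raises ER chaperones, HSP90B1 (GRP94) is the HSP90 of the ER, and SERPINH1 (HSP47) is the chaperone of procollagen. The level of XBP1 was 1.34 to 2.11 (median 1.80) in HF pigs and 1.85 to 2.53 (median 2.18) in LF pigs. It fell by 0.37 on the HF diet (standard error 0.08, limma adjusted p = 0.0398), and all 10 XBP1 probes were lower, from -0.40 to -0.29, with 2 of them called. The 12 HF pigs were all under the LF median and 7 were under the lowest LF pig.

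HSP90B1 was at 1.31 to 1.80 (median 1.66) in HF pigs and at 1.63 to 2.08 (median 1.95) in LF pigs. It fell by 0.26 (standard error 0.06, limma adjusted p = 0.0398), a small difference, and 9 LF pigs were above the highest HF pig. All 10 HSP90B1 probes, which read the same pigs, were lower, between -0.27 and -0.22, with 1 of them called. SERPINH1 was at 3.23 to 4.10 (median 3.73) in HF pigs and at 3.91 to 4.62 (median 4.24) in LF pigs. It fell by 0.47 (standard error 0.09, limma adjusted p = 0.0205), and its 4 probes were all lower, with 3 of them called in 2 separate stretches. HF pig 7 had the lowest level of each of XBP1, HSP90B1 and SERPINH1, and without it the limma adjusted p was 0.0998, 0.0998 and 0.0574. With 1 pig left out at a time, XBP1 was called in 10 of 24 fits and HSP90B1 in 8 of 24, against 23 of 24 for SERPINH1. The HSP90B1 call also ended under 7 other settings of processing, arrays or test. The adjusted p was from 0.0538 to 0.237 in limma and 0.0535 in the plain variance analysis. The mean correlation of HF pig 7 with the other 23 arrays was 0.983, the lowest of the 24, whose values reached 0.988.

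The wider list of heat shock proteins and ER stress genes held 30 genes, of which 26 were tested with 124 probes. The 3 called probes were those of XBP1 and HSP90B1, and 44 of the 124 probes were lower at an unadjusted p under 0.05 (35.5%) while 0 were higher. These 44 probes belong to 10 genes, and they include all 10 probes of XBP1 and all 10 of HSP90B1. Taken gene by gene, the median over a gene's probes was below 0 for 24 of the 26. The list median was -0.13 in the low RFI line, between -0.29 and -0.05 on the 6 slides, and -0.01 in the high RFI line. HSPH1 (HSP110), a cytosolic partner of HSP70, had the largest difference among the 3 leading genes, -0.97 (limma adjusted p = 0.0626), and its other 3 probes were between -0.87 and -0.74.

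Beside SERPINH1, collagen and matrix genes gave differences of the same sign but 0 of 138 probes called (limma, smallest p that of TNC). At an unadjusted p under 0.05, 33 of the 138 probes, belonging to 8 genes, were lower (23.9%) and 0 were higher. The list median was -0.15, with 28 of 29 genes below 0. The median was below 0 on 5 of the 6 slides, and ran from -0.3 to 0.12. TNC (tenascin C) differed by -0.93 (limma adjusted p = 0.143) and COL5A1 by -0.32 (limma adjusted p = 0.168). TNC was above background in 6 HF and 10 LF pigs.

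Markers of other cells of muscle are given beside these genes, because in a piece of tissue fewer cells of a type and less RNA per cell cannot be told apart. None of the 10 cell type lists had a called probe (limma). Of 39 probes of 11 macrophage genes, 12 were lower (30.8%) and 0 higher at an unadjusted p under 0.05, with a median of -0.54 (-0.33 in the high RFI line), which was -0.26 with normexp background correction. The 12 lower probes belong to 3 of the 11 genes, and in the high RFI line 13 of the 39 probes were lower at that threshold. The summed signal of the 39 probes, in units of the array's average probe, was 16.5 to 47.8 in HF pigs and 22 to 61.2 in LF pigs. CD163, the scavenger receptor of tissue macrophages, differed by -0.67 (limma adjusted p = 0.31) with all 7 probes lower, while CD68 was above background in 5 HF and 4 LF pigs and CSF1R in 7 and 7. For fibroblasts, 1 of 31 probes was lower (3.23%), with a median of -0.11 and summed signals of 423 to 755 and 447 to 762, and for lymphocytes 2 of 17 were lower (11.8%), with a median of -0.32. In the remaining lists the median was -0.04 for endothelial cells, -0.07 for smooth muscle and pericytes, -0.25 for erythroid cells (5 probes), -0.02 for satellite cells and 0.27 for Schwann cells, with at most 1 probe in either direction at that threshold. The part of these cells in the differences of matrix and immediate early genes was not tested.

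RDH16 and TMEM135, which belong to none of the lists, were also called. RDH16, a retinol dehydrogenase that also oxidizes steroids, was at -0.58 to 1.36 (median 0.40) in HF pigs and at 0.61 to 1.94 (median 1.65) in LF pigs, and 8 HF pigs were under the lowest LF pig. It fell by 1.01 (standard error 0.19, limma adjusted p = 0.0152), between -1.30 and -0.78 on the 6 slides. The difference rests on 1 of its 2 probes, which share no run of bases longer than 5:
RDH16 A_72_P053181: gaaaccatgcgtttccatggattaaatttt
RDH16 O6035: tttggggtgaaggtggctgtgatcgagcct
The difference was 0.02 at O6035 (limma adjusted p = 0.967), which is above background in all 24 pigs. TMEM135, a membrane protein of peroxisomes and mitochondria with 1 tested probe, fell by 0.56 (standard error 0.11, limma adjusted p = 0.0152), and 11 HF pigs were under the lowest LF pig. With normexp background correction the TMEM135 difference was -0.24, and with the deposited log2 values it was -0.32.

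Enzymes of fatty acid synthesis and desaturation had the highest share of lower probes of all 32 lists, without a call after adjustment. Of the 57 probes of 20 genes, 22 were lower (38.6%) and 0 higher at an unadjusted p under 0.05, against 5.88% lower among all probes. These 22 probes belong to 8 genes, and SCD alone had 11 probes in the list. SCD, the stearoyl-CoA desaturase that makes oleic acid, was at -3.18 to -0.56 (median -2.18) in HF pigs and at -2.30 to 0.73 (median -0.55) in LF pigs. Its difference was -1.14 (standard error 0.40, limma adjusted p = 0.22), and its other 10 probes were between -1.11 and -0.92. PNPLA3, a lipase and acyltransferase regulated by sterol response element binding protein, differed by -0.79 (limma adjusted p = 0.151), and ACACA, which makes malonyl-CoA, by -0.48 (limma adjusted p = 0.222). The list median was -0.18 in the low RFI line and 0.06 in the high RFI line, and taken within single slides it ran from -0.55 to -0.2 in the low RFI line. It was -0.37 over the probes above background on all 24 arrays. Fat cell markers are given beside it: 0 of 43 adipocyte probes had an unadjusted p under 0.05, with a median of -0.11 and summed signals of 116 to 199 in HF pigs and 123 to 275 in LF pigs. The part of fat cells in the SCD and ACACA values was not tested.

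The other lists of fat metabolism had smaller shares of lower probes. Of 48 cholesterol synthesis and uptake probes, 5 were lower (10.4%) and 0 higher, with NSDHL, an enzyme of sterol demethylation, at -0.25 (limma adjusted p = 0.0626). Of 45 probes of fatty acid uptake and transport 3 were lower (6.67%), with ACSL3 at -0.24. Fatty acid oxidation had 2 lower and 1 higher of 88 probes (2.27% and 1.14%), with DECR1 at 0.24 and ACADS at -0.17 (limma adjusted p = 0.315 and 0.433). PPAR targets of muscle had 7 lower and 1 higher of 79 probes (8.86% and 1.27%), with FGF21 at -1.31 and PPARGC1A at -0.28, neither called. The FGF21 probe was above background in 7 HF and 11 LF pigs, and its difference was -0.51 under the alternative that made it smallest. No probe of these 4 lists passed the threshold in limma.

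**Figure D3:**
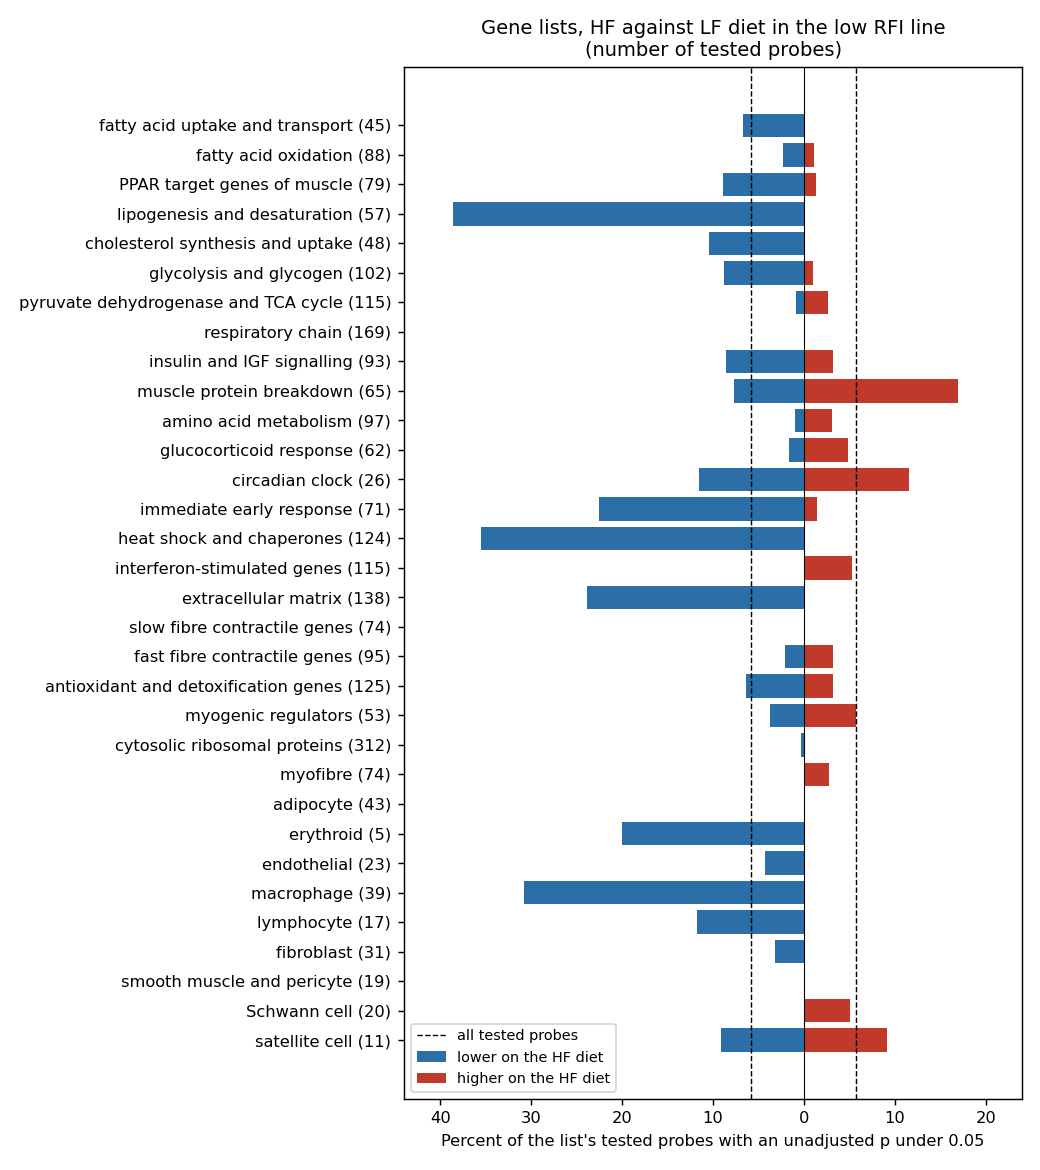
Share of each list's tested probes (x axis, percent; number of probes in brackets) with an unadjusted p under 0.05 in the low RFI line, lower on the HF diet to the left and higher to the right, for 22 pathway lists and 10 cell type lists (y axis). Dashed lines give the shares over all tested probes, 5.88% and 5.76%. Lipogenesis (38.6%), heat shock (35.5%) and macrophage (30.8%) lists reach farthest to the left, with lower probes of 8, 10 and 3 genes.

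The other lower genes were MID2, GNAZ, PDE7A, NFATC3, FHL5, CORO1C and GLIPR2. MID2, a ubiquitin ligase bound to microtubules, was at 0.66 to 1.53 (median 1.18) in HF pigs and at 1.30 to 1.86 (median 1.67) in LF pigs, with 10 HF pigs under the lowest LF pig. It fell by 0.49 (standard error 0.08, limma adjusted p = 0.00418), and 3 of its 4 probes, in 3 separate stretches, were called. Of the G protein subunit GNAZ, which inhibits adenylate cyclase, 2 of 5 probes were called, and it fell by 0.60 at the leading one (limma adjusted p = 0.0205). These 2 probes overlap by 55 bases and count as one reading, and the other 3 GNAZ probes were at -0.60, -0.31 and -0.05 (limma adjusted p = 0.0596, 0.652 and 0.862). PDE7A, which breaks down cyclic AMP, fell by 0.71 (limma adjusted p = 0.0398), with its other 3 probes between -1.02 and -0.74. For GNAZ and PDE7A, 11 of 12 HF pigs were under the LF median. Without HF pig 7 the limma adjusted p was 0.0574 for GNAZ and 0.0785 for PDE7A.

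The remaining lower genes had smaller differences. NFATC3, a calcineurin-dependent transcription factor, fell by 0.37 (limma adjusted p = 0.0445), and FHL5, a LIM protein that activates CREM, by 0.43 (limma adjusted p = 0.0366). CORO1C, which binds actin filaments, fell by 0.31 (limma adjusted p = 0.0372) and GLIPR2, a Golgi membrane protein, by 0.37 (limma adjusted p = 0.0286). With normexp background correction none of these genes was called: the limma adjusted p was 0.0634 for NFATC3, 0.0701 for FHL5, 0.0889 for CORO1C and 0.0652 for GLIPR2. The other probes of NFATC3, FHL5 and CORO1C were all lower too, the smallest difference being -0.04 at a CORO1C probe. Left out one at a time, single pigs ended these calls in part: 6, 8, 10 and 20 of the 24 fits called NFATC3, FHL5, CORO1C and GLIPR2, and without HF pig 7 the limma adjusted p lay between 0.0603 and 0.0785.

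TXNDC16, a thioredoxin-domain protein of the ER, was higher on the HF diet. Its signal was low, at -3.61 to -2.19 (median -3.01) in HF pigs and at -5.84 to -3.35 (median -4.35) in LF pigs. It rose by 1.44 (standard error 0.24, limma adjusted p = 0.00418), and 10 HF pigs were above the highest LF pig. The single probe was above background in 12 HF pigs but in only 3 LF pigs, so that the size is not exact, and with normexp background correction it was 0.44 (limma adjusted p = 0.0175):
TXNDC16 O13917: caggatgctaatgtcatcttcaaaagagca

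ABCC5 (MRP5), which exports cyclic nucleotides from cells, was at 2.31 to 2.85 (median 2.62) in HF pigs and at 1.66 to 2.28 (median 2.02) in LF pigs, without overlap. It rose by 0.59 (standard error 0.12, limma adjusted p = 0.0205), and its other 2 probes were at 0.13 and 0.27, neither called. Without HF pig 7 the limma adjusted p was 0.0545. In the high RFI line the same probe differed by 0.28 (limma adjusted p = 0.885).

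The other higher genes are given one by one. RBM48, a component of the minor spliceosome, rose by 0.37 (limma adjusted p = 0.0205), and DDX20 (Gemin3), a helicase of the SMN complex, by 0.36 (limma adjusted p = 0.0275). PHF3, which binds RNA polymerase II, rose by 0.35 (limma adjusted p = 0.0217), with its other 4 probes at 0.23 to 0.24. The zinc finger genes ZNF558 and ZNF25 rose by 0.51 and 0.34 (limma adjusted p = 0.0369 and 0.0422), and with normexp background correction the ZNF558 difference was 0.25. The other ZNF25 probes were at 0.22 and 0.09 (limma adjusted p = 0.106 and 0.688). Without HF pig 7, the limma adjusted p of these 5 genes was between 0.0545 and 0.0898, and they were called in 10 to 23 of the 24 fits that left out 1 pig.

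GPR125, an adhesion G protein-coupled receptor, rose by 0.71 (limma adjusted p = 0.0262), but with normexp background correction the difference was 0.29 (limma adjusted p = 0.0701) and with the deposited log2 values it was 0.39 (limma adjusted p = 0.0599). The kinase DSTYK rose by 0.31 (limma adjusted p = 0.0327), UBXN2B, a cofactor of the segregase p97, by 0.49 (limma adjusted p = 0.0422) and the zinc finger gene ZC2HC1A by 0.30 (limma adjusted p = 0.0445). The other UBXN2B probes were at 0.37 and 0.04 (limma adjusted p = 0.128 and 0.911), and the other ZC2HC1A probe was at 0.29 (limma adjusted p = 0.0813). DTD1, which removes D-amino acids from transfer RNA, rose by 0.54 (limma adjusted p = 0.0262) at 1 of its 6 probes. Its other 5 probes lay between -0.08 and 0.08, so that the difference rests on a probe that is tied to DTD1 through a shared transcript accession alone:
DTD1 A_72_P497328: aaatcttcgtttttctaaagcagtgtctga
DTD1 A_72_P651097: cagccagggcacatgttaagatgtagagag
At A_72_P651097 the difference was -0.08 (limma adjusted p = 0.681). Without HF pig 7 the limma adjusted p of these 5 genes was between 0.0603 and 0.093, and they were called in 7 to 19 of the 24 fits. Over the 27 called genes, 8 had 1 tested probe, and of the 19 with more, all but RDH16 and DTD1 had all probes in the same direction.

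Clock and hormone lists gave values on both sides of 0. Of 26 clock probes, 3 were higher and 3 lower at an unadjusted p under 0.05 (11.5% each), with a median of 0.03. NR1D1 (REV-ERB alpha), a repressor of the clock, differed by 0.83 (limma adjusted p = 0.0565), and NFIL3, which opposes the D-box activators of the clock, by -1.16 (limma adjusted p = 0.0684). The second NR1D1 probe was at 0.09 and the second NFIL3 probe at -1.16. Among insulin and IGF genes, 8 of 93 probes were lower (8.6%) and 3 higher (3.23%), with PIK3R1, the regulatory subunit of PI3 kinase, at -0.38 (limma adjusted p = 0.0719) and TBC1D4, which controls the traffic of GLUT4, at 0.32. KLF15, a glucocorticoid-induced factor of muscle protein and amino acid use, was at 0.47 (limma adjusted p = 0.108). In the list of muscle protein breakdown, 11 of 65 probes were higher (16.9%) and 5 lower (7.69%), belonging to 3 genes in each direction. Over all tested probes these shares were 5.76% and 5.88%. The list median was -0.01, and the median over a gene's probes was below 0 for 12 of the 20 genes. CAST, the calpain inhibitor, had all 7 probes above 0 with 0.30 at the leading one.

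The large lists of energy metabolism and contraction differed little. Of 169 respiratory chain probes 0 had an unadjusted p under 0.05 in either direction (limma, 0 called), with a median of -0.01, and COX7A1 at 0.11. The 312 probes of cytosolic ribosomal proteins had a median of -0.0 and 1 lower probe (0.321%), that of RPL7. The TCA list had 3 higher and 1 lower of 115 probes, with PDK1, which inhibits pyruvate dehydrogenase, at 0.22 (limma adjusted p = 0.218). Slow fibre contractile genes had a median of -0.18 with 0 of 74 probes at an unadjusted p under 0.05, and -0.32 in the high RFI line, where 21 of the 74 probes were lower at that threshold. Fast fibre genes had a median of 0.04, with MYH2 at 0.82 (limma adjusted p = 0.283). Antioxidant genes had 8 lower and 4 higher of 125 probes (6.4% and 3.2%), myogenic regulators 2 and 3 of 53, amino acid metabolism 1 and 3 of 97, the glucocorticoid list 1 and 3 of 62, and interferon-stimulated genes 0 and 6 of 115 (5.22% higher). In all, 19 of the 22 pathway lists had no called probe.

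The 43 called probes without a symbol included 34 higher ones. The smallest p of the whole comparison was that of A_72_P233017, a probe for a transcript cluster, which rose by 0.74 (limma adjusted p = 0.00418) and differed by -0.05 in the high RFI line:
unnamed A_72_P233017: gtgtttatgagaataaagacacaaatcttt
A probe for a cDNA had a lower level on the HF diet (limma adjusted p = 0.0238). It was above background in 1 HF and 10 LF pigs, so that its size is not exact, with a difference of -2.07 that was -0.58 under the alternative that made it smallest:
unnamed cDNA probe: ccatagcaagagcagctgctatttattttc

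A PCA of the 24 pigs used the 42057 probes measured on every array, and its first component (PC1) took up 10.9% of the variance. The mean PC1 score was 14.5 ± 20.4 (SD, n = 12) on the HF diet and -14.5 ± 22.7 (SD, n = 12) on the LF diet, a difference of 29.1 (two-sided permutation test, p = 0.00379, adjusted p over 3 components = 0.0114). The score was above 0 in 8 HF and 3 LF pigs, so that the diets overlapped on this axis. The HF mean was above the LF mean on all 6 slides, by 8.7 to 63.3, and by 28.7 and 29.4 in the pigs of the first and second scan day. Neither PC2 (8.25% of the variance, permutation p = 0.209) nor PC3 (6.98%, permutation p = 0.722) separated the diets at the threshold, and slides accounted for 73.3% of the variance of PC2. Without the filter on dim probes, PC1 did not separate the diets (permutation p = 0.739) and PC2 did (permutation p = 0.00751).

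**Figure D4:**
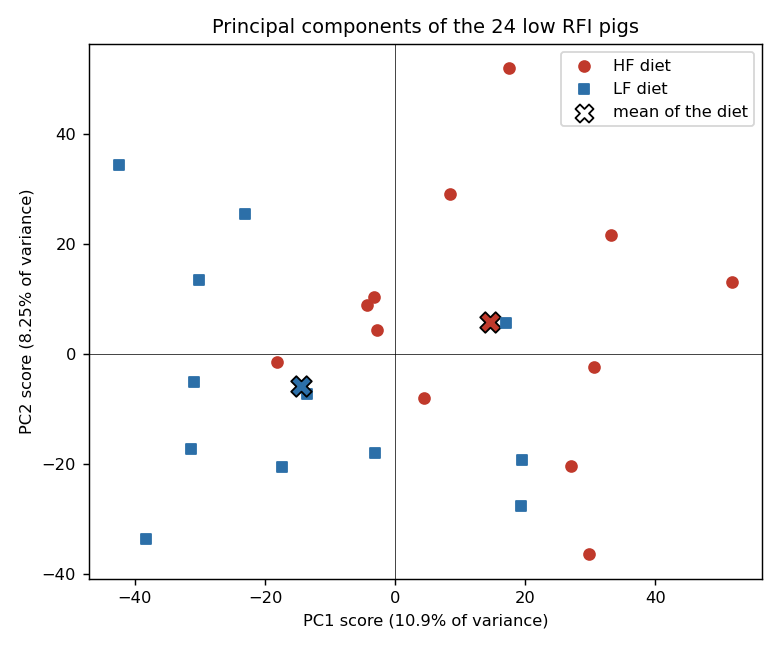
Scores of the 24 low RFI pigs on the first (x axis) and second (y axis) principal component, with 12 HF pigs as circles, 12 LF pigs as squares and the mean of each diet as a cross. The HF mean lies at 14.5 and the LF mean at -14.5 on PC1, with pigs of both diets on either side of 0.

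The same diets gave 0 called probes in the high RFI line (limma, 0%), with 2303 at an unadjusted p under 0.05 (5.47%, of which 2.49% higher and 2.97% lower). Of the 27 genes, 21 had the same direction in both lines, as had 39 of the 47 higher and 29 of the 37 lower probes, against 58.1% of all tested probes. The differences were smaller there, with a median of 0.12 at the higher and -0.12 at the lower probes. The probes were chosen on the low RFI values, and that choice itself favours larger differences in the low RFI line. NR4A3 differed by -0.44 (standard error 0.45) and PPP1R3C by -0.31 (standard error 0.16) in the high RFI line, and SERPINH1, XBP1 and HSP90B1 by -0.03, -0.05 and 0.05. The difference between the lines was tested as the line by diet interaction, and 0 probes were called (limma, 0%, smallest adjusted p = 0.395), with 1875 at an unadjusted p under 0.05 (4.45%, of which 2.44% above and 2.01% below 0). At that threshold were 39 of the 47 higher and 27 of the 37 lower probes, which had been chosen on the low RFI values that enter the interaction. For NR4A3 the interaction was -1.77 (standard error 0.63), for RDH16 -1.10 (standard error 0.27) and for TXNDC16 1.09 (standard error 0.34), none of them past the threshold. The diet response of the low RFI line was therefore not shown to differ from that of the high RFI line.

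**Figure D5:**
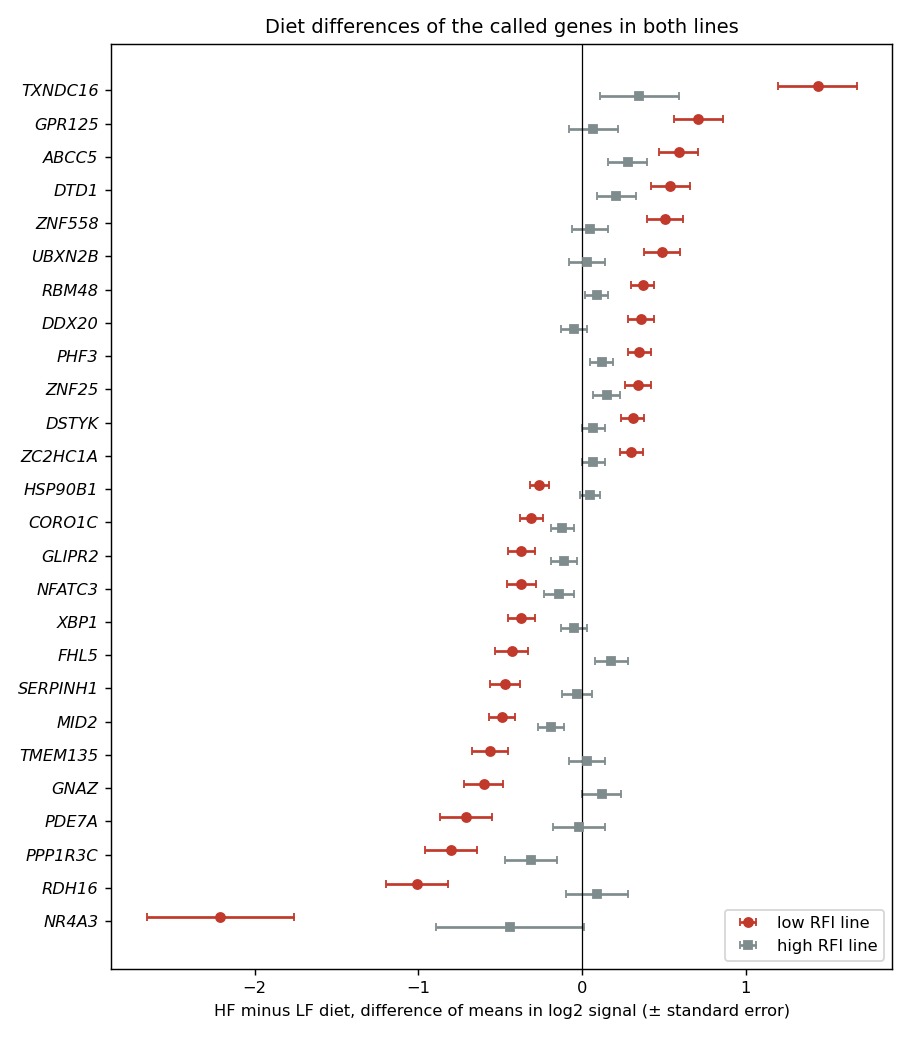
HF minus LF difference in log2 signal with its standard error (x axis) for 26 of the called genes (y axis) in the low RFI line (circles) and the high RFI line (squares). The genes were called on the circles, which run from -2.21 to 1.44, and the squares lie between -0.44 and 0.35.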

How the data were processed

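The authors deposited scanner output of the Agilent Feature Extraction software, that is spot intensities (signals with the background subtracted), and a table of log2 values, found to equal log2 median spot signals from which the array median was taken. The labels name R 2.10.0 for the authors' processing. Of 61625 spots, 60306 were not controls, for 60305 distinct probes. Outlier spots were removed, spots of a probe averaged, the log2 of the processed signal centred on each array's mean, and probes tested where 12 or more of the 48 arrays had them well above background, with 169 missing values. Symbols came from accessions, array names and shared accessions, and were found for 46.9% of the probes. The members, lists and tests were chosen with earlier results of these data known. The 4 groups of 12 pigs were fitted with limma 3.58.1 in R 4.3.3, with Benjamini-Hochberg adjustment over all tested probes and a threshold of 0.05, and the step was tested on simulated data. PC scores were compared with 100000 permutations. Named genes were all called genes (the limit was 30), each at its probe of smallest p, the 3 genes of smallest p in each of 22 pathway lists, and up to 3 markers in each of 10 cell type lists. Alternatives covered scaling, background, filters, outlier spots, slide, scan day, brightness, test and single arrays, and leaving out slides, and list medians without HF pig 7, were added after seeing the data. All deposited columns of sample values were mapped to samples. Promoter sequence was not analysed here, and a few genes that the rule names are not reported here.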

Additional observations from a re-analysis of the deposited data

How the results depend on the processing

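Against 84 calls in the low RFI line, the number was 205 with centering on the 75th percentile, 131 with probes above background on all 24 arrays, 14 without a filter on dim probes, 165 with slide and 148 with scan day as a block, 270 with the 24 arrays alone and 143 with the deposited table. By the plain variance analysis it was 229 after adjustment and 5567 unadjusted. It stayed within 1.5 times with the other alternatives, and was 10 to 141 with 1 pig left out. Leaving out a whole slide, an alternative chosen after seeing the data, gave 0 calls without slide 4, 4 without slide 2, 2 without slide 5, 44 without slide 3 and 41 without slide 6, while all 84 differences kept their direction without slide 4 (limma adjusted p up to 0.2). Fewer pigs were fitted there, and the cause was not tested further. For the 27 genes no alternative turned the direction, but dim probes gave smaller differences with normexp background correction, such as 0.44 in place of 1.44 for TXNDC16 and -0.24 in place of -0.56 for TMEM135. The interaction stayed at 0 calls with all its alternatives. With filters on dim probes, the PC1 difference lost significance without a filter (permutation p = 0.739), and PC2 passed the threshold without a filter (permutation p = 0.00751). With probes above background on all 24 arrays PC2 had a permutation p of 0.0472, and 0.0707 adjusted over 3 components. The medians of all 32 lists moved by less than the SD between pigs. That is a loose bound, because in most lists this SD was larger than the size of the median itself. For lipogenesis the SD was 0.374 against a median of -0.18, while for macrophages it was 0.442 against -0.54. The median ran from -0.37 to -0.14 for lipogenesis, from -0.55 to -0.26 for macrophages and from -0.33 to -0.13 for lymphocytes. No paired analysis was possible because the labels give each pig its own number and pair none across diets. Signals near the background limit TXNDC16, FOSL1, FGF21 and TNC in particular.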

Other observations

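Between the threshold and an adjusted p of 0.1 (limma) there were 298 probes.

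The NR4A3 level was correlated with that of 6 other lower genes over the 12 pigs of each diet, in 12 relations in all. In the 12 LF pigs, NR4A3 and SERPINH1 had r = 0.74 (permutation p = 0.00602, adjusted p = 0.0722) and rho = 0.54 (permutation p = 0.0722). Without the 2 pigs farthest from the NR4A3 median r was 0.43, so the size of r depended on those pigs. In the 12 HF pigs, NR4A3 and PPP1R3C had r = 0.57 (permutation p = 0.0535, adjusted p = 0.321) and rho = 0.53 (permutation p = 0.0796), and r was 0.74 without the 2 farthest pigs. None of the 12 relations passed the threshold after adjustment.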
